A study of Mus musculus with 9 samples.

Results

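The cytochrome P450 genes of families 1, 2 and 3 were examined in the liver of aged mice after hepatocyte-directed editing of Ccnd1, the gene of the cell cycle protein cyclin D1. Members were all rows whose symbol was Cyp1, Cyp2 or Cyp3 followed by a subfamily letter and a number, which gave 58 of the 27179 genes in the table, in 16 subfamilies. The rule reads names only, and the families were chosen with earlier results of these data known. Both groups were C57BL/6J mice labelled genotype WT and kept on normal chow. At 17 months of age they received, into the retro-orbital sinus and at the same dose, an AAV8 vector with saCas9 and a U6-driven guide RNA. The guide was directed at Rosa26, a locus commonly used as an editing control, in 4 mice, and at Ccnd1 in 5 mice. The m-lobe of the liver was taken 3 weeks later, flash-frozen, and its poly(A) RNA was sequenced in bulk. The vector's TBG promoter drives saCas9 in hepatocytes, so other liver cells were not the target of editing, and both groups carried vector and nuclease.

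The enzymes of these families sit in the endoplasmic reticulum, bind haem, and take electrons from cytochrome P450 oxidoreductase (Por) and cytochrome b5 to oxidise drugs, toxins, steroids and fatty acids. Hepatocytes around the central vein hold most of them, and their genes are switched on by ligand-activated receptors such as AHR, CAR (Nr1i3) and PXR (Nr1i2). In mice several members also differ between the sexes through the rhythm of growth hormone release, Cyp2d9 being high in males and Cyp2b9 and Cyp2a4 in females. Many members lie in clusters of near-identical copies, so a short read may match more than 1 of them.

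The 4 sgRosa26 livers are named A, B, C and D and the 5 sgCcnd1 livers E, F, G, H and I, after the order of their columns. Each library held between 10840595 and 20176201 reads. Ccnd1 itself was lower with its own guide, at 744 normalized counts on average in sgRosa26 and 362 in sgCcnd1 (limma log2 fold change -1.03, adjusted p = 0.0116); the adjusted p was between 0.0559 and 0.0852 when B, D, F, H or I was left out. Library H stood apart from the other libraries because the Y-linked genes Eif2s3y, Kdm5d and Uty were at 0 there. The labels name no sex. Of the hepatocyte markers, 11 of 12 were measured, and their summed level was 1909060 to 2272830 in sgRosa26 and 1834510 to 2311710 in sgCcnd1. T and NK cell markers had a median log2 fold change of -1.07 over 5 tested, 4 of them lower at unadjusted p under 0.05, where 5.74% of all genes were lower (1 without B, C, H or I, 2 without F), and summed levels of 79.9 to 235 in sgRosa26 and 37.0 to 143 in sgCcnd1.

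Promoter sequences are shown for the members on which the results below turn. Most of each window lies before the annotated start, so likeness of windows says little about how reads are split. For that, transcript identity is given below where it matters. Sequences are from RefSeq (GRCm38.p6), run from 250 bases before to 50 after the annotated start, 5′ to 3′ on the gene's strand, and capitals mark the motifs found. Cyp2c40 (chr19:39812765-39813064, minus strand) and Cyp2c69 (chr19:39886720-39887019, minus strand) were both highest in library G.
Cyp2c40: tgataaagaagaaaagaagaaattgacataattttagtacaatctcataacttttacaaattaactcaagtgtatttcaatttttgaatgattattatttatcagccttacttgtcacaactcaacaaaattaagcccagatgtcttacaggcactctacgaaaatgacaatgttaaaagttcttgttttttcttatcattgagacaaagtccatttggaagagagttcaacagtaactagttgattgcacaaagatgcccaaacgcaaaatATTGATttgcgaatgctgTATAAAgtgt
Cyp2c69: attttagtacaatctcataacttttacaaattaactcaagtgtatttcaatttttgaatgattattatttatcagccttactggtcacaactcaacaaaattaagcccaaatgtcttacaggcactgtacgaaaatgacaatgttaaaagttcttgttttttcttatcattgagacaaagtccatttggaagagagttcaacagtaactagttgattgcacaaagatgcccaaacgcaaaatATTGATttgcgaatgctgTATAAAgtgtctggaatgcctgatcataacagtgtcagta

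The Cyp2c40 and Cyp2c69 windows are the same stretch shifted by 30 bases. In the 270 columns where they overlap, 267 bases were identical (98.9%). Both hold ATTGAT, the reverse complement of ATCAAT, the core bound by ONECUT1 and CUX2, and both hold TATAAA. The TATAAA begins 40 bases after the annotated start in Cyp2c40 and 10 bases after it in Cyp2c69, so in this annotation the motif lies inside both transcripts.

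Cyp2a4 (chr7:26306942-26307241, plus strand) and Cyp2a5 (chr7:26835089-26835388, plus strand) are shown because their windows are nearly alike while their levels are far apart.
Cyp2a4: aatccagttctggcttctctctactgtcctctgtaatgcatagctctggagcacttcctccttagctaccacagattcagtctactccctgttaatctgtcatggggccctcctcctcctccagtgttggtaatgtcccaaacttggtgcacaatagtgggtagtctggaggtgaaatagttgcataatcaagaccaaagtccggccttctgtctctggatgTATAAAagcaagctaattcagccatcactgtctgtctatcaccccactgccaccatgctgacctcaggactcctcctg
Cyp2a5: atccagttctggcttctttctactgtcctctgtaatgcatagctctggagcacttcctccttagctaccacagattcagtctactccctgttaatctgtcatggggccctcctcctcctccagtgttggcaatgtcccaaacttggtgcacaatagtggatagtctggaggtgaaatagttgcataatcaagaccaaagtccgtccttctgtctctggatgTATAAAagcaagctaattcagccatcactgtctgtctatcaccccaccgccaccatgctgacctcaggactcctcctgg

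Over 299 overlapping columns 294 bases of Cyp2a4 and Cyp2a5 were identical (98.3%). TATAAA began 28 bases before the start of Cyp2a4 and 29 before that of Cyp2a5. Their transcripts were 98.2% identical.

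Cyp2b9 (chr7:26173159-26173458, plus strand) and Cyp2b10 (chr7:25897408-25897707, plus strand) had the largest animal-to-animal spread among members with a mean of at least 50, and Cyp2j5 (chr4:96664070-96664369, minus strand) was the 1 tested member whose groups did not overlap.
Cyp2b9: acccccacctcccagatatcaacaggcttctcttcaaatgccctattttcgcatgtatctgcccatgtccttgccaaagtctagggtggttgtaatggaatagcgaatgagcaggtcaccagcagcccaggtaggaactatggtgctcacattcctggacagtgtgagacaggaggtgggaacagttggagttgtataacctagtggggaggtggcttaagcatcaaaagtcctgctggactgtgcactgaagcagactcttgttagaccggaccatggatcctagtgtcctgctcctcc
Cyp2b10: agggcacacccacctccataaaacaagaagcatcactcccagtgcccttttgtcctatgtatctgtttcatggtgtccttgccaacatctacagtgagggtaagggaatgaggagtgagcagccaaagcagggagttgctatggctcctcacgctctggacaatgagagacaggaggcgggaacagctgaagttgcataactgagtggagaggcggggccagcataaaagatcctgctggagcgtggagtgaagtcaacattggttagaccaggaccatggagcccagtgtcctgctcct
Cyp2j5: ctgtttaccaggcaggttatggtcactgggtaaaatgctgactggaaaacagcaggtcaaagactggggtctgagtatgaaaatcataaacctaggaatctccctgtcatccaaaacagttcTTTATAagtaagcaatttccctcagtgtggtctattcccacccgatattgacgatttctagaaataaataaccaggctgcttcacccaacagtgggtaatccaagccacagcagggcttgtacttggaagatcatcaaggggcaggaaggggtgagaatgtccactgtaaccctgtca

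The windows of Cyp2b9 and Cyp2b10 were 72.4% identical over 304 columns, and none of the motifs searched was found in either. That of Cyp2j5 held TTTATA, the reverse complement of TATAAA, 128 bases before the start. A promoter was given for 50 of the 58 members. On both strands, TATAAA was in 26 of these 50 (52%) and in 13.6% of all 32851 promoter windows. ATCAAT was in 10 (20%) and in 7.54% of all windows. TTCNNNGAA, the palindrome bound by STAT5, was in 2 (4%) and in 8.30% of all windows. TNGCGTG, the AHR response element, was in 1 (2%) and in 5.07%, and TTATGTAA, a form of the D-box bound by DBP and TEF, was in 0 and in 0.938%. No 2 of these motifs overlap in the windows printed. A match to these letters describes the window only.

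The families were abundant, and most of their signal came from few members. Their summed level was 278723 ± 21583 normalized counts (SD, n = 4) in sgRosa26, which is 1.83% ± 0.14 of all signal, and 296795 ± 26936 (SD, n = 5) in sgCcnd1, 1.88% ± 0.18. The sums ran from 256882 to 306289 in sgRosa26 and from 257274 to 328248 in sgCcnd1, so the groups overlapped. The 2 most abundant members held 41.9% of the families' signal, the top 5 held 59.7% and the top 20 held 96.9%. At the other end, 7 members (Cyp2b19, Cyp2b23, Cyp2c66, Cyp2j11, Cyp2j12, Cyp2j13 and Cyp2w1) were at 0 in all 9 libraries, and 11 had reads but a mean under 10. These 18 were not tested, which left 40.

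Compared per kb of transcript, which 57 members allowed, Cyp2e1 was the most abundant at 42250 normalized counts per kb over the 9 libraries. It oxidises ethanol and acetaminophen. Cyp3a11, the main drug-oxidising CYP3A of mouse liver and a PXR target, followed at 18552. Cyp2c29 stood at 10720, and Cyp2f2, which activates naphthalene and is more periportal than the rest, at 10139. The CYP2D members Cyp2d26, Cyp2d9 and Cyp2d10 were at 7938, 7779 and 6743. The per-kb levels of Cyp2c29 (8283 to 12534) and Cyp2f2 (6838 to 12833) ran into each other over the animals. In each subfamily's counts not corrected for length, CYP2E held 26.8% of the families' signal, CYP2C 20.9%, CYP3A 19.8% and CYP2D 16.3%.

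**Figure D1:**
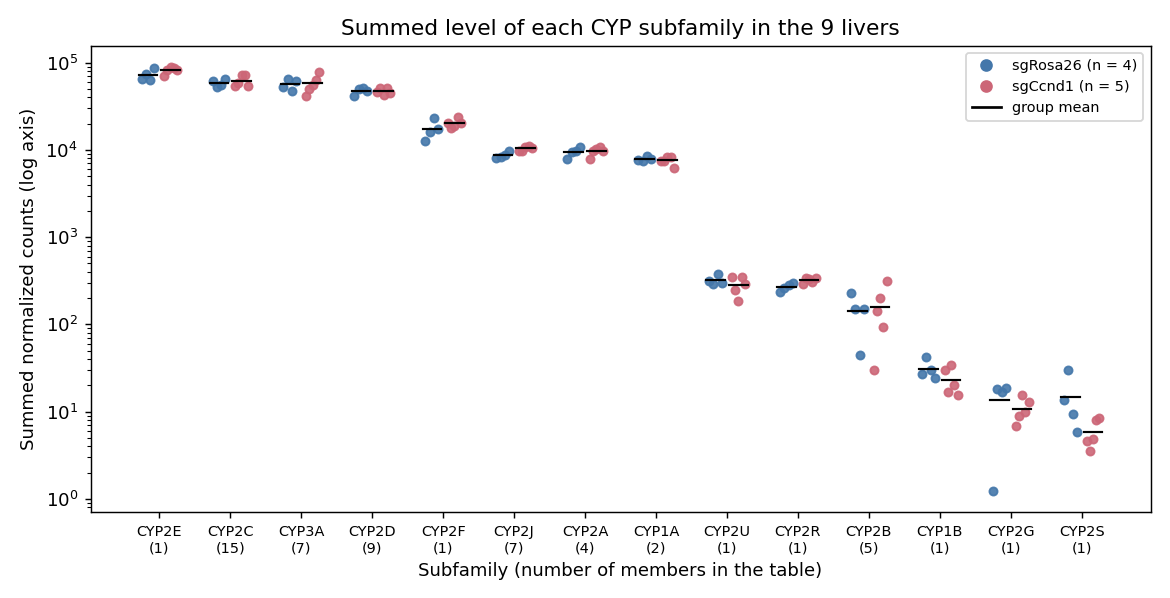
Summed normalized counts (log axis) of each subfamily in the 4 sgRosa26 and 5 sgCcnd1 livers, 1 point a library, with group means as bars. CYP2T, which was at 0 in library H, and CYP2W, at 0 in all libraries, are not drawn. The groups of CYP2J do not overlap (8019 to 9638 against 9789 to 11104), and those of the other subfamilies drawn do.

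No member passed the test between groups. Of the 40 tested, 0 were higher and 0 lower at an adjusted p under 0.05 by limma, where 0.00770% of all genes tested (1 of 12993, Ccnd1) were called. At an unadjusted p under 0.05 there were 3 of 40 (7.5%), with 11.0% over all genes. Cyp2j5 and Cyp2r1 were the 2 higher in sgCcnd1 (5.22% of all genes were called in that direction), and Cyp3a59 was the 1 lower (5.74%). With edgeR and with DESeq2 the count was 5 of 40 (12.5%), against 10.2% to 10.7% of all genes. Leaving out 1 library gave 3 to 6 members (7.32% to 14.6%) against 7.86% to 12.7% of all genes. The members' share thus lay below the background in some settings and above it in others. edgeR called 0 members (background 0.00770%), and DESeq2 called 1, Cyp2j5 (background 0.976%). Leaving out library H, edgeR and DESeq2 each called 0. DESeq2 left the adjusted p undefined for 7 members without H and for 2 with all libraries. The median log2 fold change was 0.05 over the members tested and 0.01 over all genes tested, with 27 members above 0 and 13 below; leaving out 1 library moved the members' median between 0.00 (without H) and 0.16 (without E). Fewer cells of a type and less RNA per cell cannot be told apart in bulk tissue.

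**Figure D2:**
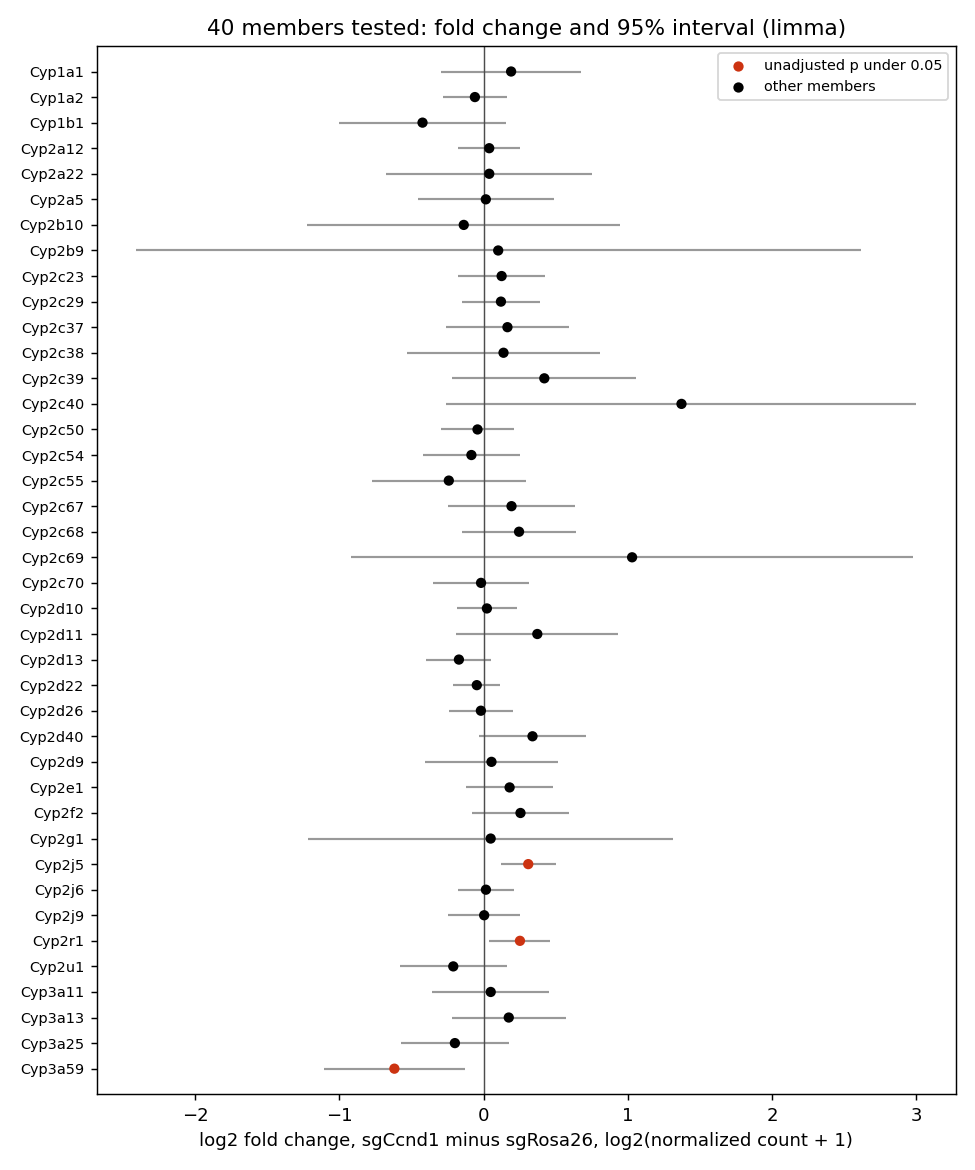
Log2 fold change (sgCcnd1 minus sgRosa26) of each of the 40 members tested, with its 95% interval from limma; red marks an unadjusted p under 0.05. Cyp2j5 and Cyp2r1 lie above 0 and Cyp3a59 below, and the intervals of all the other members include 0.

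Cyp2j5 makes epoxides from arachidonic acid and is a main CYP2J of mouse liver and kidney. It was at 6767, 7060, 7383 and 8258 normalized counts in A to D and at 8415, 8651, 9442, 9735 and 9340 in E to I. Every sgCcnd1 library was above every sgRosa26 library. It was the 1 member of 40 (2.5%) whose groups did not overlap, where 3.89% of all genes tested had none (1.92% in the higher direction). Its log2 fold change was 0.31 (SE 0.09, 95% interval 0.12 to 0.50), with an adjusted p of 0.276 by limma and 0.0456 by DESeq2. Over its 21 alternatives the adjusted p lay between 0.0456 and 0.574, and it was 0.238 by DESeq2 without library H. An exact two-sided permutation test over the group labels gave p = 0.00794, the smallest that 4 against 5 libraries can give. Groups that do not overlap put this p at or next to its smallest value, so it adds nothing to the lack of overlap. The other 2 tested CYP2J members were at like levels in both groups: Cyp2j6 had a log2 fold change of 0.02 (95% interval -0.18 to 0.21) and Cyp2j9 of 0.00 (-0.24 to 0.25). Cyp2j5 held 86.5% of the CYP2J signal, and the subfamily's sum had a log2 ratio of 0.27, or 0.17 after quantile normalization.

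Cyp2r1 is the main vitamin D 25-hydroxylase. It was at 237, 263, 284 and 297 normalized counts in A to D and at 287, 344, 330, 306 and 342 in E to I. The groups overlapped through library E, which lay just above C and below D. Its log2 fold change was 0.25 (SE 0.10, 95% interval 0.04 to 0.46) with an adjusted p of 0.375 by limma. The exact two-sided permutation test gave p = 0.0317 for Cyp2r1.

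Cyp3a59 was at 419, 630, 423 and 513 in A to D and at 213, 253, 420, 293 and 492 in E to I. Libraries E, F and H were below all controls, while G and I lay within their range. Its log2 fold change was -0.62 (SE 0.22, 95% interval -1.11 to -0.13) with an adjusted p of 0.349 by limma. The exact two-sided permutation test gave p = 0.0794 for Cyp3a59. Its transcript was 97.0% identical to that of Cyp3a25, so reads could be split between these copies. Cyp3a25 had a mean of 11552 ± 1375 (SD, n = 4) and 10287 ± 2731 (SD, n = 5), and libraries E, F and H were its lowest too (7246, 8731 and 9511). Its log2 fold change of -0.20 had a 95% interval of -0.57 to 0.17.

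Among the CYP1 genes, which AHR controls, Cyp1a2, the enzyme that clears caffeine, held 99.7% of the CYP1A signal. It had a mean of 7834 ± 509 (SD, n = 4) and 7545 ± 904 (SD, n = 5), a log2 fold change of -0.06 (95% interval -0.28 to 0.16). Leaving out 1 library gave -0.10 to 0.01 for Cyp1a2. Cyp1a1, the member that AHR ligands induce most, was at 15.5 to 20.6 and 15.2 to 25.5, so there was little of it in either group. Cyp1b1, found in liver mainly outside hepatocytes, was at 24.3 to 42.1 in sgRosa26 and 15.6 to 34.3 in sgCcnd1 (log2 fold change -0.42, 95% interval -1.0 to 0.15). Leaving out 1 library gave -0.57 (without G, unadjusted p = 0.0478 and adjusted p = 0.529 by limma) to -0.27 for Cyp1b1. Stellate cell markers, given beside it, had a median log2 fold change of -0.27, with 2 of 8 lower at unadjusted p under 0.05 (5.74% over all genes) and summed levels of 5059 to 8003 and 4306 to 6677. That count was 0 without B, 1 without A, C, G, H or I, and 5 without D or E; their part in the value of Cyp1b1 was not tested.

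Fold changes of the most abundant drug-oxidising members were small. Cyp2e1 was at 65292, 74545, 62977 and 86405 in A to D and at 69541, 81422, 88683, 86727 and 81402 in E to I. The 2 ranges overlapped over most of their width, and the log2 fold change was 0.18 (95% interval -0.12 to 0.48). Cyp3a11 was at 38705, 51524, 33957 and 45304 against 32395, 37950, 40163, 51194 and 60190, with a log2 fold change of 0.05 (-0.36 to 0.46). Both the lowest and the highest Cyp3a11 values were in sgCcnd1 livers. Cyp2c29 gave 0.12 (-0.15 to 0.39), with 0.02 without C and 0.22 without D. Cyp2f2 gave 0.26 (-0.08 to 0.59), with 0.12 without A and 0.40 without C. Leaving out 1 library gave 0.12 to 0.27 for Cyp2e1 and -0.07 to 0.15, with a change of sign, for Cyp3a11. The 23 members with a mean of at least 1000 had log2 fold changes from -0.20 to 0.31. In the CYP2D subfamily, which acts on many basic drugs, the mean sums were 47230 ± 4364 (SD, n = 4) and 47181 ± 3902 (SD, n = 5).

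The CYP2A and CYP2B genes were led by Cyp2a12 and Cyp2b10. Cyp2a12, which hydroxylates bile acids, had means of 6537 ± 461 (SD, n = 4) and 6738 ± 807 (SD, n = 5). Cyp2a5, the mouse coumarin hydroxylase, had 2844 ± 881 and 2819 ± 603. Its log2 fold change was 0.02, with a wide 95% interval of -0.46 to 0.49. Cyp2b10, the classic CAR target, was at 108, 123, 42.2 and 96.1 in A to D and at 26.7, 98.5, 53.8, 85 and 234 in E to I. Its lowest and its highest value both came from sgCcnd1 livers, 8.78 times apart. Cyp2u1, which hydroxylates long-chain fatty acids, was at 321 ± 36.8 (SD, n = 4) and 283 ± 68.7 (SD, n = 5). Cyp2g1, an olfactory member, was at 16.9 to 18.5 in B to D and at 1.23, which is 1 read, in A.

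Libraries of 1 group differed from each other by more in the middle member than in the middle gene of all those tested. The median within-group SD on the log2 scale was 0.31 over the 40 members and 0.20 over all genes tested. By level, it was 0.79 for the 10 members with means of 10 to 100 (0.33 for the other genes there), 0.31 for the 7 from 100 to 1000 (0.17) and 0.26 for the 14 from 1000 to 10000 (0.15). For the 9 members of 10000 or more it was 0.19, as it was for the other genes of that level. Of the 40 members, 39 had a CV above that of their counts alone in both groups, some by little, and Cyp1a1 in neither. Cyp3a11 had a CV of 18.1% in sgRosa26 and 25.2% in sgCcnd1, where its reads alone would give 0.479%. The median SD of the members was 0.25 in sgRosa26 and 0.31 in sgCcnd1, and 0.22 in sgCcnd1 without library G. Over all genes tested it was 0.20 in sgRosa26, 0.18 in sgCcnd1 and 0.18 in sgCcnd1 without G.

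**Figure D3:**
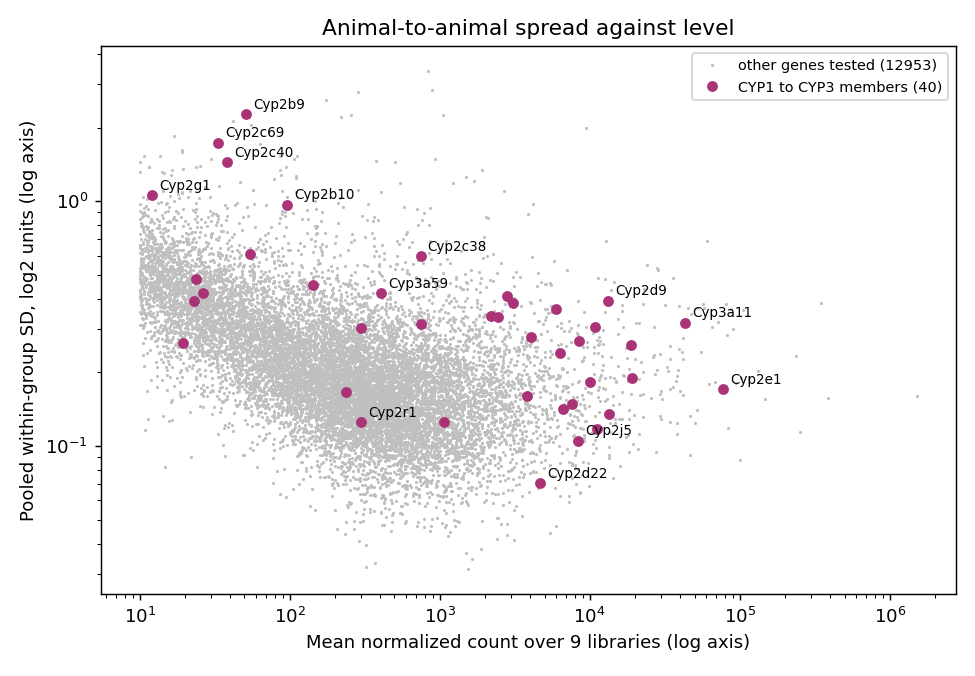
Within-group SD (log2 units, log axis) against mean normalized count over the 9 libraries (log axis), with the 40 members in purple and the other 12953 genes tested in grey. Cyp2b9, Cyp2c69, Cyp2c40 and Cyp2b10 lie above most genes of their level, and Cyp2d22 lies low.

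The steadiest members with a mean of at least 50 were Cyp2d22 (SD 0.07), Cyp2j5 (0.11) and Cyp2d10 (0.12). Cyp2d22 ran from 4244 to 5033 over all 9 livers. The most variable were Cyp2b9 (2.27), Cyp2b10 (0.97), Cyp2a22 (0.61), Cyp2c38 (0.60) and Cyp2c55 (0.46). Spread also varied within the CYP2D subfamily: Cyp2d9, a testosterone hydroxylase, had an SD of 0.39.

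Cyp2b9, a female-predominant member, was at 113, 21.9, 1.88 and 51.5 normalized counts in A to D and at 2.29, 41.2, 144, 8.0 and 76.6 in E to I. It was high in A and G and near 0 in C and E, with a 76.7-fold range over the livers. Cyp2d9 was at 9534, 15771, 16925 and 10182 in A to D and at 15388, 15499, 8572, 15306 and 12678 in E to I. Its lowest values were those of G, A and D, 3 of the 4 livers with the most Cyp2b9. In library H, which had 2 reads on the Y-linked gene Ddx3y and 0 on the other 3 listed, Cyp2d9 was within the range of the others and Cyp2b9 was among the low values. Male-biased liver genes outside the families, given beside these, had summed levels of 24300 in A and 38594 in G, and of 43778 to 62294 in the other 7 libraries; 8 of the 11 tested were lowest in A, where 16.2% of all genes tested were, and the highest sum was that of H. Female-biased genes had summed levels of 2759 in D and 2685 in G, but 1564 in A, within the 1145 to 2129 of the other libraries. The part of these lists in the spread of Cyp2d9 and Cyp2b9 was not tested.

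**Figure D4:**
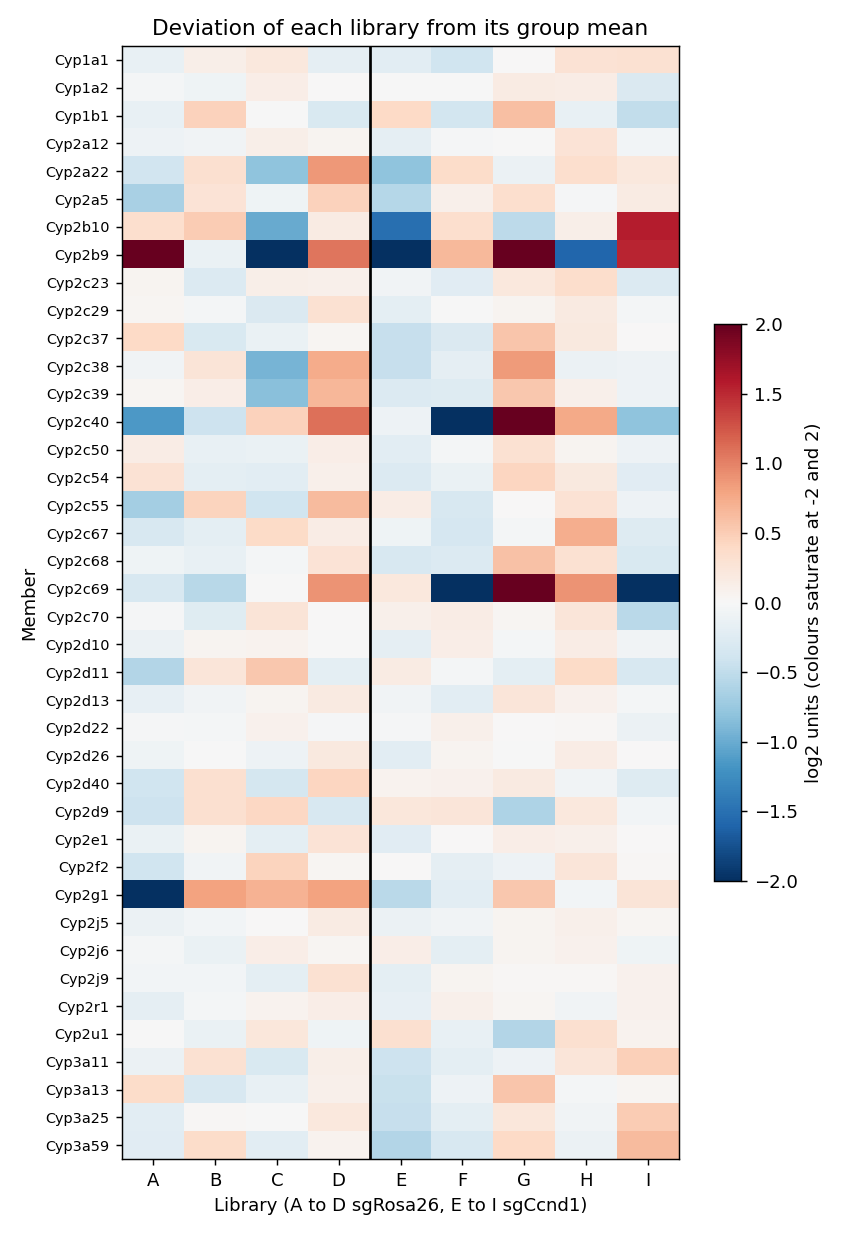
Deviation of each library (columns) from the mean of its own group, in log2 units, for the 40 members tested (rows, by subfamily); red is above and blue below the group mean. Cyp2b9, Cyp2c40 and Cyp2c69 are the rows with the strongest colours, and G is red in all 3.

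Library G held the highest value of 12 of the 40 members, where 10.6% of all genes tested were highest in G. The genes and the library described here were picked after their values were seen, so no test is given. Cyp2c40 was at 173 in G, at 6.27 to 56.0 in the other sgCcnd1 livers and at 4.92 to 27.2 in the controls. Cyp2c69 was at 188 in G, and at 3.58 to 39.0 and 6.14 to 18.5 in the same groups. For both, H was next highest after G. Cyp2a4 was at 34.3 in G and at 2.29 to 8.74 in the other 8 livers, while Cyp2a5, whose promoter is nearly the same, was at 3476 in G and within the range of the others (1746 to 3757).

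Of the 13 tested CYP2C members, 8 were highest in G: besides these 2, they were Cyp2c37 (9067), Cyp2c38 (1319), Cyp2c39 (38.2), Cyp2c50 (12086), Cyp2c54 (5217) and Cyp2c68 (3474). Cyp2c23, Cyp2c29 and Cyp2c67 were highest in H, Cyp2c55 in D and Cyp2c70 in C. The transcripts of Cyp2c40 and Cyp2c69 were 97.7% identical and shared 42.1% of the 50-base windows of Cyp2c40, so reads could be split between them. Cyp2c40 was as close to the more abundant Cyp2c68 (98.0%) and Cyp2c67 (97.6%), and 72.1% of its windows occur in other Cyp transcripts, so its reads in G could also belong to those copies. Cyp2d9 and Cyp2u1 (184) were lowest in G. Without library G the log2 fold change of Cyp2c40 went from 1.37 to 0.78, that of Cyp2c69 from 1.03 to 0.24 and that of Cyp2c38 from 0.14 to -0.08; none passed the test either way.

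**Figure D5:**
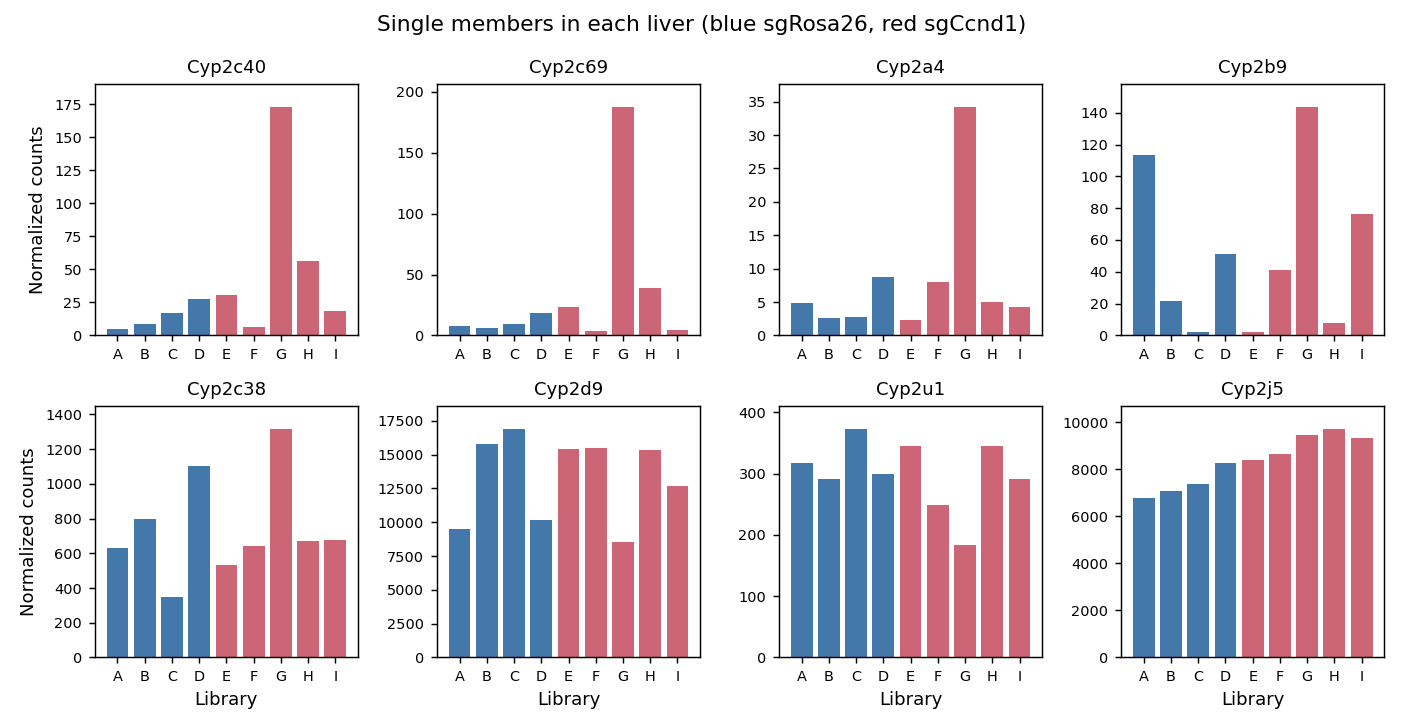
Normalized counts of 8 members in each of the 9 livers (blue sgRosa26, red sgCcnd1, linear axes from 0). Cyp2c40, Cyp2c69, Cyp2a4 and Cyp2c38 have their highest bar in G, Cyp2d9 and Cyp2u1 their lowest, and all red bars of Cyp2j5 stand above the blue ones.

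Other genes moved with library G. Of the 26 acute-phase genes, 15 were highest in G and 7 in A, where 10.6% and 13.3% of all genes tested were, and their summed level was 702184 in G, 670467 in A and 369468 to 498487 in the others. Over the groups 0 of the 26 had an unadjusted p under 0.05 (11.0% over all genes), with 2 higher without A, 1 higher without F and 1 lower without G. Por, Bcl6 and Hsd3b5 were picked after their values were seen. Por was at 3897 in G and at 2041 to 2526 elsewhere. Bcl6, a repressor of sex-biased liver genes, was at 1282 in G, 932 in A and 859 in C, and at 110 to 493 elsewhere. Hsd3b5, a male-specific gene, was at 370 in G and 483 in A, and at 854 to 3299 elsewhere; it was the 1 of 11 tested male-biased genes that was lowest in G. Their part in the values of the members was not tested.

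The genes that serve or control these enzymes gave 0 calls in either direction after adjustment by limma or edgeR in every list. DESeq2 called Nfe2l2 lower with all libraries and without H, and Socs2 higher without H. The 6 redox partners, Por and cytochrome b5 among them, also had 0 at unadjusted p under 0.05 (11.0% over all genes), and 1 higher without B, D, E or G. Their median log2 fold change was 0.14. Of 12 genes of haem synthesis and breakdown, 1 was higher at that threshold (5.22% over all genes), with 0 without C and 2 without I. This was Alas1, the rate-limiting enzyme of haem synthesis. It was at 2213, 1394, 866 and 1650 in A to D and at 1726, 3172, 1764, 4982 and 2681 in E to I, a log2 fold change of 0.87 with an adjusted p of 0.349 by limma. Library H was the highest and the groups overlapped.

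Of the 25 tested receptors and regulators, 5 (20%) were higher and 1 (4%) lower at unadjusted p under 0.05, where 5.22% of all genes were higher and 5.74% lower; 2 were higher without C or H and 3 without B or E, and 3 were lower without G. Onecut1, which binds the ATCAAT core, was at 51.6 to 130 in sgRosa26 and at 186, 192, 46.0, 632 and 153 in E to I. Library H was far above the rest and G was below all controls. Its log2 fold change was 1.23, and 0.77 without H. The log2 fold changes of the other 4 were Dbp 1.08, Tef 0.41, Rxra, the partner of CAR and PXR, 0.23, and the glucocorticoid receptor Nr3c1 0.21. Nfe2l2, the regulator of the oxidative stress response, was at 2071 to 2297 in sgRosa26 and at 1484 to 1684 in sgCcnd1, with no overlap (log2 fold change -0.45, limma adjusted p = 0.135). The receptors named for these families were close to level or varied: Nr1i2 gave 0.03, Nr1i3 -0.27 and Ahr -0.26, with adjusted p of 0.948, 0.660 and 0.552. Of 9 growth hormone signalling genes, 3 were higher (Socs2 at 1.41, Igfals at 0.35, Igf1 at 0.22) and 1 lower (Stat5a at -0.37), with 1 higher without B, 2 higher without A, F, H or I, and 2 lower without G.

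For 7 pairs of a gene and a member from textbook knowledge, levels were compared over the 9 libraries. Besides regulators, the pairs took in the haem synthesis gene Alas1 with Cyp2b10 and the acute-phase gene Saa1 with Cyp3a11. Pearson's r lay between 0.08 (Ahr and Cyp1a2) and 0.41 (Nr1i3 and Cyp2c29), with exact permutation p adjusted over the 7 pairs of 0.508 to 0.847. Leaving out 1 library gave r of -0.06 to 0.29 for Ahr and Cyp1a2 and of 0.17 to 0.55 for Nr1i3 and Cyp2c29. The widest range was 0.09 to 0.68, for Dbp and Cyp2a5. Spearman's rho lay between 0.23 and 0.42, all with an adjusted permutation p of 0.552. For Nr1i3 and Cyp2c29, r was -0.05 after leaving out D and G, the libraries farthest from the median of Nr1i3. For Nr1i3 and Cyp2b10, r went from 0.27 to 0.60 on leaving out the same libraries, and the other 5 pairs had r of 0.08 to 0.44 without their own farthest 2. No pair passed.

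The remaining lists give the setting, against the same 5.22% of all genes higher and 5.74% lower. At unadjusted p under 0.05, the 11 tested male-biased genes had 1 higher (Nudt7; 4 without C, 2 without D or G, and 1 lower without A) and the 6 female-biased genes 0 (1 lower without C, 1 higher without D). Pericentral genes outside the families had 3 of 15 lower (Slc1a4, Lgr5, Notum) and a median log2 fold change of -0.15, while periportal ones had 4 of 15 higher (Sds, Sdsl, Fbp1, Gls2; 2 without B, H or I and 8 without A) and a median of 0.19. Of 15 clock genes, 3 were higher (Nr1d1, Nr1d2, Ciart) and 2 lower (Npas2 at -1.29, Bmal1 at -0.44), with 2 higher without G, 5 higher without C, 1 lower without B and 3 lower without I; the labels name no harvest time. Cholangiocyte markers had 2 of 7 lower (1 without A), Kupffer cell markers 1 of 8 (3 without E), and B and plasma cell markers 1 of 8 (0 without A or B, 2 without C or D, 4 without E). Endothelial (8), red cell (4) and hepatocyte (11) markers had 0, though 1 endothelial marker was lower without D or E and 1 hepatocyte marker higher without A. The 26 tested genes of the other P450 families had 4 higher and 2 lower, with a median log2 fold change of 0.11; 2 were higher without B, 6 higher without C, and 3 lower without D or G. After adjustment the DESeq2 calls included Slc1a4 and Npas2, both lower, and Sds, higher (not without H), and limma and edgeR called none in these lists.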

How the data were processed

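Per the submitters' processing notes, reads were handled with Trim Galore 0.6.7, HISAT2 2.2.1, featureCounts 2.0.3, FastQC 0.74, MultiQC and DESeq2 2.11.40.8, with builds mm10 and GRCm38. The annotation, use of strand and treatment of reads with several matches are not given in the sources used here. The authors' deposited table holds a normalized count signal per gene. In every library 100% of values were whole multiples (within 0.01) of 1 library-specific unit, which makes them reads divided by a size factor.

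From it, log2(normalized count + 1) was compared with limma 3.58.1 (R 4.3.3; lmFit, eBayes with trend, two-sided, no covariate) in the 12993 genes whose mean reached 10, and p-values were adjusted by Benjamini-Hochberg over all of them with a threshold of 0.05. Fold changes on this scale understate changes of low genes. The alternatives edgeR 4.0.16 and DESeq2 1.42.0 used the recovered reads. Procedures were tested on simulated data. Each column carries a number, read here as that of the animal. With 1 library a mouse, the animal-to-animal spread also holds that of tissue sampling and library preparation. Counting error is the only error that depth covers.

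Members follow the naming rule; Cyp3a41a and Cyp3a41b fall outside it. The members and gene lists were chosen with earlier results of these data known. Described members are the highest of each subfamily, those at unadjusted p under 0.05, the 5 most and 3 least variable with a mean of at least 50, and 13 textbook members; of each list, genes at the smallest p. Outside this rule, Cyp2c and Cyp2a4 values of library G, Cyp3a25, Cyp2j6, Cyp2j9, Por, Bcl6, Hsd3b5, the receptors and further list genes were picked after their values were seen. 1 list gene is not reported here. Identity and lengths came from each member's longest protein-coding transcript in GENCODE M21.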

Additional observations from a re-analysis of the deposited data

Results flagged for a closer look

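Among the values of 64 member and group combinations, 3 had 1 library far from the rest of its group by Dixon's ratio, where chance gives about 1 in 20, or 3.2. These combinations did not take in both groups of all 40 members tested, so the count holds for them only. Cyp2c69, at 188 in sgCcnd1 library G and at 3.58 to 39.0 in the other 4, was not among the 3. Cyp2c38 was at 1319 normalized counts in sgCcnd1 library G, and at 531 to 678 in the other 4. Cyp2d22 was at 5033 in sgRosa26 library C, and at 4613 to 4675 in the other 3. Cyp2g1 was at 1.23 in sgRosa26 library A, which is 1 read, and at 16.9 to 18.5 in the other 3.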

How the results depend on the processing

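No paired analysis was possible because replicate numbers are absent from the column names. The count of members higher at adjusted p under 0.05 was 1 with DESeq2 and 0 under every other setting run. The count at unadjusted p under 0.05, 3 by limma, was 5 with edgeR (TMM or RLE scaling), with DESeq2 and with edgeR without library H (12.5%, against 10.6% and 10.7%, 10.2% and 7.74% of all genes), and 3 to 6 when 1 library was left out (6 without D, 5 without G). The CYP2J log2 ratio was 0.17 under quantile normalization. The median SD of the members was 0.38 with no filter, 0.26 with a minimum mean of 100, and 0.29 to 0.33 when 1 library was left out; for all genes tested it was 0.17 with that minimum. The median log2 fold change of the members was 0.00 to 0.16 when 1 library was left out. Cyp2j5, Cyp2r1 and Cyp3a59 kept their sign in all 21 alternatives each (0.20 to 0.37, 0.19 to 0.30 and -0.78 to -0.47). Members with a fold change near 0, such as Cyp2a5 and Cyp2d9, changed sign in 12 and 7 of 21, without passing the threshold. Members with a mean under 10 were left out by the chosen filter.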
